A study of Mus musculus with 2 samples.

Results

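MHC genes and the genes that load and support MHC molecules were described here across 2 arrays of polarized mouse lymphocytes. Members were the genes whose single annotated symbol starts with H2- (hyphen included), together with B2m, Tap1, Tap2, Tapbp, Cd74, Ciita, Cd80, Cd83 and Cd86, which gave 42 of the 17501 named genes. By class they were 2 classical class I genes, 21 nonclassical class I genes, 9 class II genes, 6 processing genes, 3 costimulation genes and H2-Ke6, which carries the prefix but encodes a steroid dehydrogenase. The labels name a TRP-1 mouse as the source of the lymphocytes, and the series' title concerns Th17-polarized cells and melanoma. RNA of Th1-polarized cells (Cy5) and RNA of Th0-polarized cells (Cy3) shared 1 array, and RNA of Th17-polarized cells (Cy5) and RNA of Th0-polarized cells (Cy3) shared the other. The age of the mouse, the polarizing agents, the culture time and whether the cells were sorted or pooled are not stated in the labels. Each comparison had 1 array, without replicates or a dye swap, so no value below was tested, and the number of arrays limits the precision.

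Class I molecules are built from a heavy chain and the light chain beta-2 microglobulin, and show peptides from inside the cell to CD8 T cells. Peptides reach them through the TAP transporter, to which tapasin (Tapbp) holds the empty molecule. Class II molecules are pairs of an alpha and a beta chain that travel with the invariant chain (Cd74) to acidic vesicles, where H2-DM exchanges a fragment of that chain for peptide. They are a feature of dendritic cells, macrophages and B cells, while resting mouse T cells carry little of them. Transcription of the class II genes depends on the coactivator CIITA, and interferon gamma is known to raise both classes.

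Each value is the deposited log2 ratio of the channels of an array, averaged over the probes of a gene, and a gene is called apart at a difference of at least 2-fold (an absolute log2 value of at least 1). The order of the ratio is not stated in the table. Read as titled, a positive value means more RNA in the polarized cells than in Th0 cells, but Il17a, the cytokine gene that names the Th17 lineage, lay at −5.37 on the Th17-Th0 array, and Ifng, which encodes interferon gamma, was at −2.02 on the Th1-Th0 array. Values are therefore given as the positive or negative side of the deposited ratio, and with the sign turned a positive value means more RNA in Th0 cells. The Th17 value minus the Th1 value is called the difference below. It rests on the Th0 RNA having been the same on both arrays, which the labels do not state. A negative difference stands for less RNA in Th17 than in Th1 cells under the titled order of the ratio. Under the reversed order it stands for more RNA in Th17 than in Th1 cells. In the difference Il17a lay at −5.67 and Ifng at 1.19. These are the sides of the reversed order if each gene is higher in its own lineage, which was not tested. The sole repeat measurement was the spread between the probes of 1 gene, whose pooled SD was 0.51 for Th1, 0.49 for Th17 and 0.52 for the difference, over 5886 genes. In such bulk RNA, fewer cells of a type and less RNA per cell cannot be told apart.

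The class II genes lay on the positive side of the Th1-Th0 array and mostly slightly on the negative side of the Th17-Th0 array. Their medians over 9 genes were 0.59 and −0.23, beside −0.08 and −0.03 over all named genes, and the median of their differences was −1.01, beside 0.04. On the Th1-Th0 array 7 of the 9 lay above 0, beside 7461 of all 17501 named genes. Of the 9, 1 was called, on the positive side, where 3.27% of all genes were called. On the Th17-Th0 array 8 of the 9 lay below 0, beside 9390 of the 17501. There 0 were called, beside 5.52% of all genes on the negative side. In the difference 5 of the 9 were called on the negative side, beside 3.61% of all genes, and 0 on the positive side.

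The genes of the classical class II chains were measured with 1 to 3 probes each. H2-Aa, the alpha chain of the I-A molecule, held 1.33 (2.52-fold) on the Th1-Th0 array and 0.43 on the Th17-Th0 array, a difference of −0.90. Its partner H2-Ab1, the beta chain, held 0.82 ± 0.09 and −0.23 ± 0.29 (SD over 3 probes). The 3 probes of H2-Ab1 lay between 0.72 and 0.90 on the first array and between −0.57 and −0.05 on the second. Probe by probe their differences were −0.97, −1.28 and −0.89, with a mean of −1.05 ± 0.21. As repeat probes on 1 array per comparison, they are not replicates of the cells. H2-Eb1, the beta chain of the I-E molecule, lay at 0.85 and −0.16, a difference of −1.01. The I-E alpha chain probe, H2-Ea, stood apart from these chains at −0.27 and −0.30. Its gene number was not matched to the current gene list, which holds H2-Ea of C57BL/6J as a transcribed pseudogene under another number.

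The class II helper genes split. H2-DMb1 and H2-DMb2, which encode the beta chains of the peptide exchanger H2-DM, lay at 0.62 and 0.59 on the Th1-Th0 array and at −0.47 and −0.46 on the Th17-Th0 array. Their differences were −1.09 and −1.05. They are close copies of each other, so the probes may share signal and their likeness is not independent evidence. H2-DMa, the alpha chain, lay at 0.20 and −0.19, with a smaller difference of −0.39. H2-Oa, a chain of the H2-DM inhibitor H2-O, had the most negative difference of the class at −1.23, from 0.23 on the first array and −0.997 on the second. For its partner chain H2-Ob the probes disagreed, with 0.43 and −0.95 on the Th1-Th0 array and −0.25 and 0.09 on the Th17-Th0 array. Of the H2-Ob probes, 1 had a difference of −0.68 and the other of 1.05, so the gene had no common side.

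Cd74, the invariant chain that chaperones class II molecules, lay close to the class II chains. It held 1.16 ± 0.11 on the Th1-Th0 array (2.23-fold, SD over 2 probes) and −0.15 ± 0.18 on the Th17-Th0 array, a difference of −1.30 ± 0.28. Both of its probes were above 1 on the first array, at 1.08 and 1.23, and below 0 on the second. Ciita, the class II coactivator, lay at 0.01 on the first array and −0.28 on the second, with 1 probe. Cd74, H2-Aa, H2-Ab1, H2-Eb1, H2-DMb1 and H2-DMb2 were at 0.59 or above on the Th1-Th0 array. The remaining class II genes lay there at 0.23 (H2-Oa), 0.20 (H2-DMa), −0.26 (H2-Ob, mean of probes that disagreed) and −0.27 (H2-Ea). The part of Ciita in these values was not tested.

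**Figure D1:**
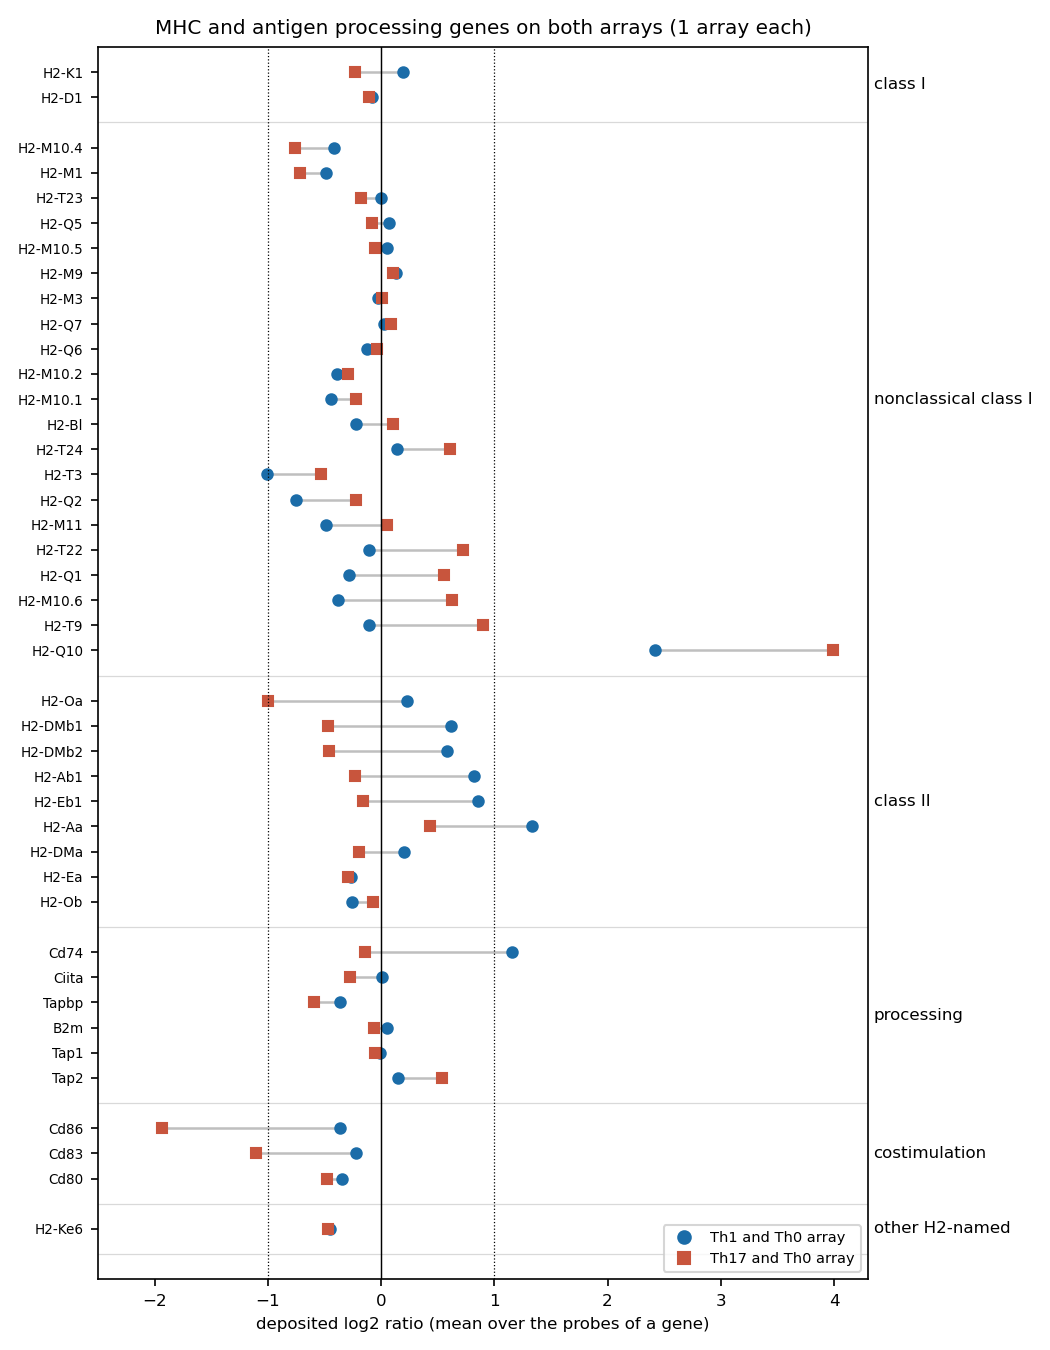
Deposited log2 ratio (horizontal axis) of each of the 42 genes, grouped by class; a circle is the Th1-Th0 array, a square is the Th17-Th0 array (1 array each, mean over probes), and dotted lines mark 2-fold. Class II genes and Cd74 have their circles to the right of their squares except H2-Ob, and H2-Q10 stands alone at 2.42 and 3.99.

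The size of these differences depended on where the arrays were centred. Widely expressed control genes had a median of 0.25 on the Th1-Th0 array and −0.01 on the Th17-Th0 array over 13 measured genes, and 11 of the 13 had a negative difference (median −0.23). Centring the arrays on these genes left H2-Aa called on the Th1-Th0 array at 1.08 and Cd74 at 0.90, not called. It moved the median difference of the class II genes from −1.01 to −0.75, and 0 of the 9 were then called on that side, beside 2.35% of all genes. The 7 class II genes other than H2-Ob and H2-Ea kept the negative side of the difference under this centring and under centring on all genes. On the Th1-Th0 array the class II median was 0.33 with control-gene centring, and H2-DMa and H2-Oa crossed to −0.05 and −0.02.

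The promoters of class II genes carry a conserved array of boxes, among them an X box, bound by the RFX complex, and a Y box, bound by NF-Y, on which CIITA is assembled. They are shown because these genes lay together in the difference. RefSeq windows (GRCm38.p6) of 250 bases before to 50 bases after the start of a gene were found for 30 of the 42 members. Capitals mark, on either strand, the Y box letters ATTGG, an X box core searched as AACNGATGA, and in H2-Aa the cyclic AMP response element TGACGTCA. None of the marked motifs overlap one another.
H2-Aa (chr17:34287774-34288073, minus strand): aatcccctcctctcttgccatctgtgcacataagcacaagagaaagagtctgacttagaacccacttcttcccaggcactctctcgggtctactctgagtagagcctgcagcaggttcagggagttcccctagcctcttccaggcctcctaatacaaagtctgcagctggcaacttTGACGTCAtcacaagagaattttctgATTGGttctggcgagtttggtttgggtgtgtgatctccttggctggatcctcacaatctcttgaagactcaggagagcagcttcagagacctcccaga
H2-Eb1 (chr17:34305617-34305916, plus strand): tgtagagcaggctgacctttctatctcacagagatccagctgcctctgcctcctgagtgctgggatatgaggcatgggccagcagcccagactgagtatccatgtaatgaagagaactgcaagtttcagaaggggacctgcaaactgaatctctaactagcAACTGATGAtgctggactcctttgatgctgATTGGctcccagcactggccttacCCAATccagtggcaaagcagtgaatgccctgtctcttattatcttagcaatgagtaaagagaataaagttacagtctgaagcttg
H2-DMb1 (chr17:34152941-34153240, plus strand): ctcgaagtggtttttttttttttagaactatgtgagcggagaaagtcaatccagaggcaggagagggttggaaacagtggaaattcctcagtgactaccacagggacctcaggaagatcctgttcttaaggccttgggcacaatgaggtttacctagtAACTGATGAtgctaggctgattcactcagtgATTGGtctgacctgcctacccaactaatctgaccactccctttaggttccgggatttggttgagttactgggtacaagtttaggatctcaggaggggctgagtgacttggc
In H2-Eb1 the X box core began 89 bases and in H2-DMb1 92 bases before the start, and the Y box began 59 and 61 bases before it. In H2-Aa the Y box began 48 bases and the cyclic AMP response element 74 bases before the start. All 7 class II genes with a window held the Y box letters, but so did 37.4% of the 32851 mouse windows. The X box core was in 3 of the 7 (H2-DMb2 as well), beside 0.648% of all windows, and the cyclic AMP response element was in 1 of the 7, beside 1.79%. These are matches of letters, and a missing match says only that the letters are not in the window.

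The class II genes lie in 1 stretch of chromosome 17, in which genes of class I processing sit between them. In the order of the gene list, H2-Oa, H2-DMa, H2-DMb2 and H2-DMb1 are followed by Psmb9, Tap1, Psmb8 and Tap2 and then by H2-Ob, H2-Ab1, H2-Aa and H2-Eb1. The gene list holds 22 genes in the stretch searched. Only measured members and measured genes of the antigen presentation list used below are given, and the others were left out. Psmb9 and Psmb8 are subunits of the immunoproteasome and no members. The differences of these 4 inner genes were −0.17, −0.04, 0.02 and 0.39, while those of the class II genes on either side, H2-Ob apart, lay between −1.23 and −0.39.

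**Figure D2:**
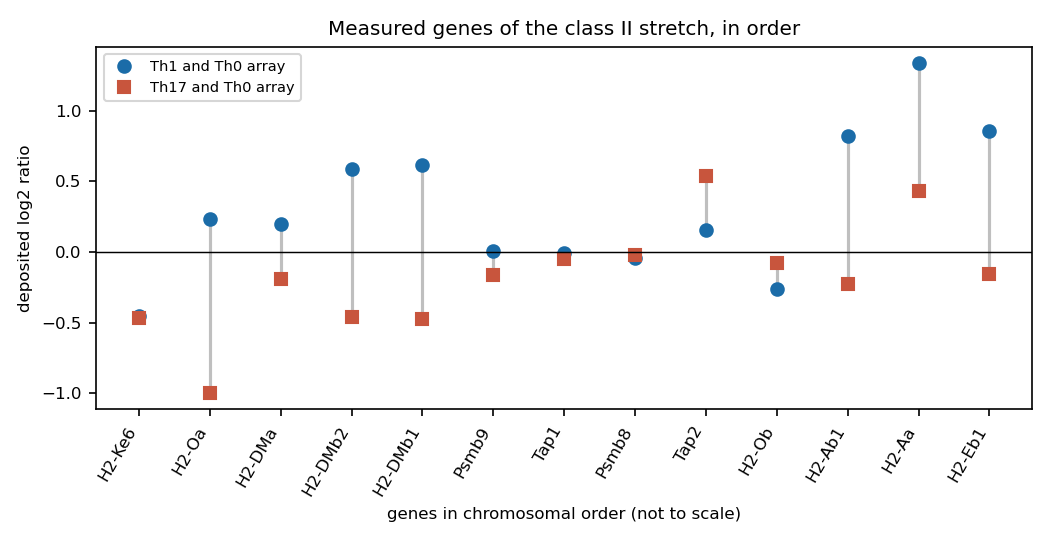
Deposited log2 ratio (vertical axis) of 13 measured members and presentation genes in their order along chromosome 17, with circles for the Th1-Th0 array and squares for the Th17-Th0 array. Other genes of the stretch are not shown. The circles of class II genes stand above the squares except at H2-Ob, while those of Psmb9, Tap1 and Psmb8 lie within 0.2 of 0 with their squares.

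The classical class I genes lay near 0 on both arrays. H2-K1, a main class I heavy chain, had probes at 0.21 and 0.18 on the Th1-Th0 array and at −0.19 and −0.28 on the Th17-Th0 array, so its 2 probes were alike and the difference was −0.43 ± 0.05 (SD). The probes of H2-D1, the other heavy chain, were not alike. The first lay at 0.23 and −0.25, near those of H2-K1, and the second at −0.39 and 0.04, which left a mean difference of −0.03 ± 0.64. A further probe annotated to both genes, and so not counted for either, lay at 0.20 and −0.25. No member of this class was called, and centring on control genes turned their median from 0.06 to −0.20 on the Th1-Th0 array and from −0.23 to 0.03 in the difference.

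B2m, the light chain of every class I molecule, was measured with 77 probes, which makes it the best repeated member. Its mean was 0.06 ± 0.24 on the Th1-Th0 array and −0.06 ± 0.39 on the Th17-Th0 array (SD over probes), with medians of 0.17 and −0.15. The probes were divided at 0 on the Th1-Th0 array, and whether they form separate groups was not tested. On the Th1-Th0 array 55 lay above 0, with a median of 0.19, and these had a median of −0.20 on the Th17-Th0 array. The other 22 lay below 0, with a median of −0.27, and had a median of 0.32 on the Th17-Th0 array. These 22 were spread from −0.90 to −0.01 on the first array and from −0.45 to 0.80 on the second. A single B2m probe lay at −2.01 on the Th17-Th0 array but at 0.27 on the Th1-Th0 array, and its Th17 ratio matched a weaker channel of 1 unit, which on that reading is a spot of almost no signal.

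For B2m the mean difference of −0.12 thus joins 53 probes below 0 and 24 above, from −2.28 to 1.12. The widely expressed control genes Sdha and Ywhaz were also measured with 77 probes each. The differences of the Sdha probes had an SD of 0.55, like those of B2m, and 55 of them lay above 0 and 22 below on the Th1-Th0 array, the same numbers as for B2m, so such a spread was not particular to B2m. For Ywhaz the SD of the differences was 0.25. Gapdh, measured with 30 probes, lay at 0.25 ± 0.08 and −0.21 ± 0.12. These means were close to H2-K1 and to the medians of the 55 B2m probes above 0 on the Th1-Th0 array. The table carries no spot intensity and no saturation flag, so the levels behind these ratios were not seen, and their part in the split was not tested. For a member measured with 1 probe, such a split could not have been seen.

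**Figure D3:**
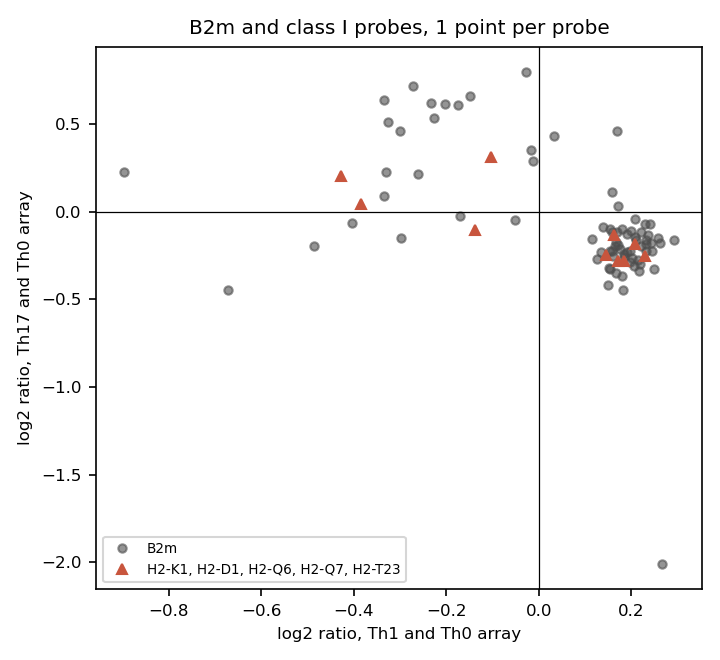
Log2 ratio on the Th1-Th0 array (horizontal axis) against that on the Th17-Th0 array (vertical axis) for the 77 B2m probes (circles) and for the probes of 5 class I genes (triangles). The 55 B2m probes to the right of 0 have medians of 0.19 and −0.20, near which both H2-K1 probes and 1 H2-D1 probe also lie. The other 22 B2m probes lie to the left of 0.

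The kappa B site of enhancer A, bound by NF-kappaB and known from class I promoters, was searched as GGGATTCCC on both strands. H2-K1 is shown because it holds the letters, and H2-Q10 because it had the largest values of all members. Capitals mark the site.
H2-K1 (chr17:34000298-34000597, minus strand): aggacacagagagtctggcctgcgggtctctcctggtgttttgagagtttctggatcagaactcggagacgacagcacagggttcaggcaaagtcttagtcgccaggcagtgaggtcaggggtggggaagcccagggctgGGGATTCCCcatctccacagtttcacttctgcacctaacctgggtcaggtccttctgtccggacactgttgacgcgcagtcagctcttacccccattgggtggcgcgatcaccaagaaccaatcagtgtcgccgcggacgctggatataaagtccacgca
H2-Q10 (chr17:35469839-35470138, plus strand): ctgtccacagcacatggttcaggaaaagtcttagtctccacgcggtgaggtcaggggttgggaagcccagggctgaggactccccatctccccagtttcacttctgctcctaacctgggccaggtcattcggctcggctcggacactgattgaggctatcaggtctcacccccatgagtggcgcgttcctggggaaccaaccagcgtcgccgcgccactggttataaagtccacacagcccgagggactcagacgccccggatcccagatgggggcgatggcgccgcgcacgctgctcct
The letters began 110 bases before the start in this window of H2-K1, and 0 matches were found in the window of H2-Q10. Both classical genes held a match, as did 2 of the 16 nonclassical genes with a window, H2-Q6 and H2-Q7, beside 0.353% of all windows.

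H2-Q10 was the member furthest from 0. This nonclassical class I gene is known for a secreted product made mainly by liver. It lay at 2.42 (5.36-fold) on the Th1-Th0 array, rank 51 from the top of all named genes, and at 3.99 (15.9-fold) on the Th17-Th0 array, rank 10, where it was the 1 member called positive, beside 2.9% of all genes. The difference was 1.57 (2.97-fold). The value rests on 1 probe, whose ratio matched no weaker channel of at most 5 units on either array. The other 5 genes of the Q group lay between −0.75 and 0.07 on the first array and between −0.22 and 0.55 on the second, so none of them was near H2-Q10. H2-Q1 was the one with the next largest difference, at 0.83, from −0.28 and 0.55. Probes annotated to several Q genes lay at 0.15 and −0.23 (H2-Q2 and H2-Q1) and at −0.63 and 0.16 (H2-Q8 and H2-Q7).

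H2-Q6 and H2-Q7, which encode the Qa-2 antigen, had 2 probes each, and these differed in sign. The probes of H2-Q6 lay at 0.17 and −0.43 on the Th1-Th0 array and at −0.28 and 0.21 on the Th17-Th0 array. Those of H2-Q7 lay at −0.10 and 0.16, and at 0.31 and −0.13. The Th17 value of the first H2-Q7 probe matched a weaker channel of 3 units. In both genes the probe that was higher on the first array was the lower on the second.

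Of the 5 T genes, 3 lay on the positive side of the Th17-Th0 array. H2-T22, known as a ligand of gamma delta T cell receptors, and its close relative H2-T9 lay at −0.10 and −0.11 on the Th1-Th0 array and at 0.73 and 0.90 on the Th17-Th0 array. The 2 probes of H2-T22 spread from 0.42 to 1.03 there (SD 0.43). H2-T9 was called in the difference, at 1.01, and H2-T22, at 0.83, was not. Probes shared by these and H2-T10 lay on the same side, between 0.34 and 0.76 on the Th17-Th0 array. H2-T24 lay at 0.14 and 0.61. H2-T23, which encodes Qa-1, the ligand of the NKG2A receptor, stayed near 0 at 0.004 and −0.17. Its probes differed in sign on the Th1-Th0 array, at 0.15 and −0.14, and lay at −0.25 and −0.10 on the Th17-Th0 array. H2-T3, the thymus leukemia antigen gene, lay at −1.01 and −0.53, and was the 1 member called on the negative side of the Th1-Th0 array, where 6.92% of all genes were called; centred on the median of all genes it lay at −0.93 and was not called.

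The M group and H2-Bl were small in size. The 9 M genes lay between −0.49 and 0.13 on the Th1-Th0 array and between −0.76 and 0.62 on the Th17-Th0 array. Of them 1 was called in the difference, H2-M10.6 at 1.01, with −0.38 and 0.62 on the arrays; the M10 genes are known from vomeronasal neurons. H2-M10.2 had 2 like probes, at −0.39 and −0.38 on the first array and at −0.31 and −0.26 on the second. H2-M3, which presents formylated peptides, lay at −0.03 and 0.01. Over all 21 nonclassical genes the medians were −0.13 and 0.01, and that of the difference was 0.22, with 3 called on the positive side (H2-Q10, H2-T9 and H2-M10.6) beside 4.53% of all genes. The calls of H2-T9 and H2-M10.6 were lost when the arrays were centred on the median of all genes (0.97 and 0.96). Control-gene centring kept both, each at 1.27, and H2-Q10, and added H2-Q1 (1.10) and H2-T22 (1.09), beside 7.71% of all genes.

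Genes of the class I loading path stayed within 2-fold. The transporter chains Tap1 and Tap2 lay at −0.01 and 0.15 on the Th1-Th0 array and at −0.05 and 0.54 on the Th17-Th0 array, so the paired chains were not alike on the second array. Tapbp lay at −0.36 and −0.60. Each of these had 1 probe. Together with B2m, Cd74 and Ciita they formed a class of 6 whose median difference was −0.18, with Cd74 as the 1 called gene.

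Other genes of antigen presentation, from a list of 29 of which 27 were measured, were mostly within 2-fold. Their medians were 0.13 and 0.07 on the arrays and −0.08 in the difference, and centring on control genes turned the first and the last in sign. On the Th1-Th0 array 2 were called positive, Ctss at 1.84 and Ctsl at 1.03, and 1 negative, the chaperone gene Calr at −1.03, beside 3.27% and 6.92% of all genes on those sides. On the Th17-Th0 array 0 were called positive and 1 negative, Calr at −1.18, beside 5.52% of all genes. In the difference 3 of the 27 were called, all negative, beside 3.61% of all genes. They were Ctss, the protease cathepsin S that trims the invariant chain, at −2.24, Ifi30, the thiol reductase of class II vesicles, at −1.27, and Cd1d1, which presents lipids, at −1.06. On the Th17-Th0 array these 3 lay at −0.40, −0.63 and −0.21. Centring on control genes ended the calls of Cd1d1 in the difference (−0.80) and of Ctsl on the Th1-Th0 array (0.78), and Irf1 was then called there (−1.07). The immunoproteasome subunits Psmb8, Psmb9 and Psmb10 had differences of 0.02, −0.17 and −0.0018, and a Psmb9 value of −0.16 on the Th17-Th0 array matched a weaker channel of at most 5 units. The RFX and NF-Y genes, whose products bind the X and Y boxes, had differences between −0.53 (Nfya) and 0.11 (Rfx5). Ctsl, another lysosomal protease, lay at 0.93 on the Th17-Th0 array. Cd40, a costimulatory receptor of cells that present antigen, was at −0.15 and −0.91, and its difference of −0.75 was the furthest from 0 among the genes of the list that were not called. Irf1, a transcription factor of interferon responses, lay at −0.81 and −0.12, while Canx, a class I chaperone, lay at 0.98 and 0.55, and Erap1, which trims peptides, at 0.18 and 0.84.

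Costimulation genes lay on the negative side of both arrays, and further out on that of Th17. Cd86, a ligand of CD28, had probes at −0.15 and −0.59 on the Th1-Th0 array and at −2.03 and −1.84 on the Th17-Th0 array. Probe by probe, Cd86 had differences of −1.88 and −1.25. Its means were −0.37 ± 0.31 and −1.93 ± 0.14 (SD over 2 probes), and its difference was −1.57 ± 0.45 (2.96-fold). The Th1 value of the second Cd86 probe matched a weaker channel of 5 units. Cd83, known to hold MHC class II and CD86 at the cell surface, lay at −0.22 and −1.10, a difference of −0.88. Cd80, the other CD28 ligand, lay at −0.35 and −0.48, so the 2 ligands of CD28 were not alike on the Th17-Th0 array. Thus 2 of the 3 were called there on the negative side, beside 5.52% of all genes, and 1 of the 3 in the difference, beside 3.61%. These calls held under both ways of centring. As titled, Cd86 would be 3.82-fold lower in Th17 than in Th0 cells, and with the sign turned 3.82-fold higher.

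In the difference Cd86 lay on the negative side, as did 8 of the 9 class II genes, H2-Ob being the exception. Over all named genes 8060 of 17501 lay below 0 there. H2-Ea was at −0.03 and moved to 0.23 with control-gene centring. On the Th1-Th0 array H2-Aa and Cd74 were called positive while Cd86 lay at −0.37. On the Th17-Th0 array Cd86, Cd74 and 8 of the 9 class II genes all lay below 0, at −1.93 for Cd86, −0.15 for Cd74 and a median of −0.23 for the class II genes, with H2-Aa above 0 at 0.43.

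**Figure D4:**
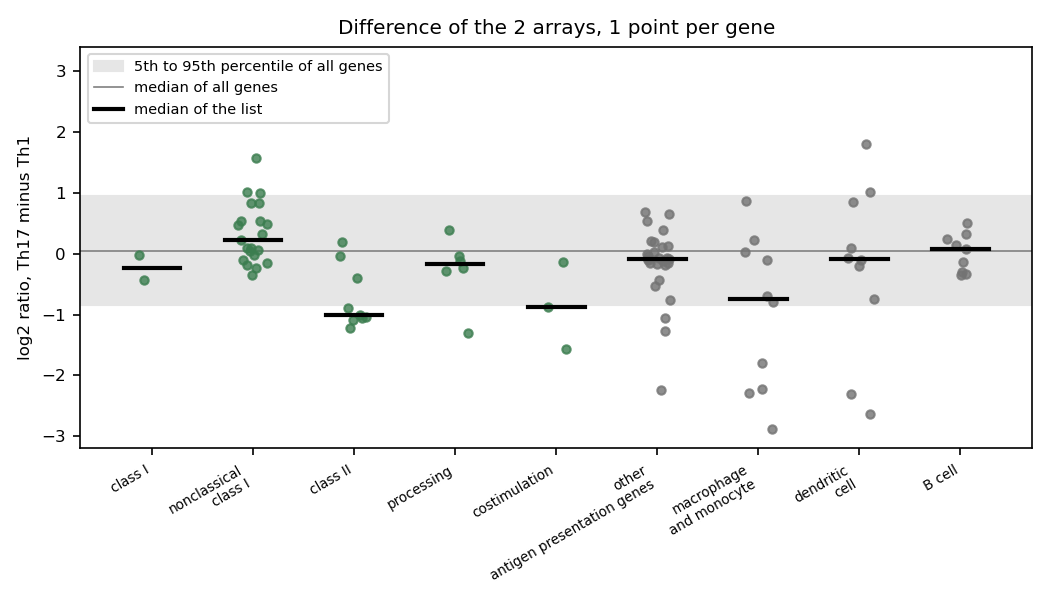
Log2 ratio for Th17 minus that for Th1 (vertical axis), with 1 point per gene, a bar for the median of each list, a line for the median of all genes and a grey band from percentile 5 to percentile 95 of all genes (−0.85 to 0.95). Of the classes, the class II median of −1.01 and the costimulation median of −0.88 lie below the band, and H2-Q10, H2-T9 and H2-M10.6 lie above it.

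Markers of cells that present antigen are set beside the class II genes, as deposited. Of 12 listed macrophage and monocyte genes 10 were measured, and 7 of these were called positive on the Th1-Th0 array, beside 3.27% of all genes, with a range of −0.49 to 1.99 and a median of 1.47. On the Th17-Th0 array the same list ranged from −2.04 to 2.01 with a median of 0.15, and in the difference its median was −0.75, with 4 called negative and 0 positive, beside 3.61% and 4.53% of all genes on those sides. Among them Lyz2, the lysozyme gene, lay at 1.80 and −0.44 and Cd14, a receptor of monocytes, at 0.84 and −2.04, while the complement gene C1qb lay at 1.98 and 2.01. Control-gene centring moved the median difference of this list to −0.48. Then 4 were called negative and 1 positive (Fcgr1 at 1.14), beside 2.35% and 7.71% of all genes. The 10 dendritic cell genes had medians of −0.12 and −0.21. In the difference 2 were called negative, Itgax at −2.31 and Flt3 at −2.64, beside 3.61% of all genes. Another 2 were called positive, Cd209a at 1.80 and Siglech at 1.02, beside 4.53%. For Siglech 1 of 2 probes matched a weaker channel of at most 5 units on the Th1-Th0 array. With control-gene centring 3 were positive, Xcr1 (1.12) being added, and 2 negative, beside 7.71% and 2.35% of all genes. The 9 measured B cell genes of 10 listed had medians of −0.14 and 0.14 and 0 were called in the difference, with a range of −0.36 to 0.50. All 6 mast cell and basophil genes were called positive on the Th1-Th0 array, from 1.82 to 3.31, beside 3.27% of all genes. In the difference 5 of the 6 were called negative, beside 3.61%, and with control-gene centring 4 of the 6, beside 2.35%. Of 11 listed T cell genes 9 were measured, and all 9 lay below 0 on the Th1-Th0 array, as did 10040 of the 17501 named genes. Their medians were −0.70 there and −1.001 on the Th17-Th0 array. Called negative were 3 of the 9 on the first array and 5 of the 9 on the second, beside 6.92% and 5.52% of all genes. In the difference the T cell median was 0.205, with 1 called positive (Cd28 at 1.31) and 0 negative, beside 4.53% and 3.61%. Those counts were the same with control-gene centring, beside 7.71% and 2.35%. The part of these markers in the values of the MHC genes was not tested, and a table of ratios shows no level from which presence or absence of a cell type could be read.

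Over all 42 members, 4 were called on the Th1-Th0 array (3 positive, 1 negative), beside 10.2% of all genes on either side, and 3 on the Th17-Th0 array (1 positive, 2 negative), beside 8.42%. Both counts, 9.52% and 7.14% of the members, are near these backgrounds. In the difference 10 were called (3 positive, 7 negative), which is 23.8% of the members beside 8.14% of all genes. The split in the difference turned to 5 positive and 2 negative when the arrays were centred on control genes, which raises every difference by 0.26, and the 2 that stayed negative were Cd74 and Cd86. All genes then had 7.71% called on the positive and 2.35% on the negative side. On the Th1-Th0 array that centring gave 2 on each side, with H2-Q2 added and Cd74 lost, beside 1.81% of all genes on the positive and 11.8% on the negative side. At 1.5-fold in place of 2-fold the counts were 9, 11 and 14 of the 42, beside 26%, 20.9% and 20.5% of all genes.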

How the data were processed

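Per the labels, total RNA was purified on RNeasy columns, and 500 ng went into amplification with amino allyl labelling. The deposited table gives 36547 probes a value on each array. From their pattern these are log2 ratios of both channels, made by the authors; scanner, background correction and normalisation: not given in the sources used here. Of repeated values, the most frequent, −0.8485 on the Th1-Th0 array and −0.4263 on the Th17-Th0 array, was read as equal whole-number signals, and a probe was matched to a weaker channel of at most 5 units where its distance from that value was within 0.0002 (log2) of the log2 of a ratio with such a denominator. This held for 3.14% and 2.48% of probes and for 3 members.

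Of the probes, 26926 carried 1 gene and were averaged per gene, 203 carried several genes (6 of them members, left out of the means) and 9418 were unnamed here. Gene numbers matched a current gene list (GRCm38.p6) for 40 of 42 members. Members lie on 130 probes; 30 had 1 probe. With 1 array per group no test was made. Named genes were the called members, the classical class I, processing and costimulation genes, members whose probes differed in sign, the 4 marker genes of the set, and others by class; from the other presentation genes, those called and the 4 of largest absolute value per comparison. Irf1, H2-M10.2, H2-M3, H2-T24 and the RFX, NF-Y, immunoproteasome and cell type marker genes named beside them were chosen after their values were seen. The members and lists were chosen with earlier results of these data known. Alternatives were 2 centrings, 2 other rules for the probes of a gene, weak probes left out, shared probes kept and a 1.5-fold threshold. The calling and matching steps were tested on simulated data. Python 3.11.15, pandas 2.3.3 and matplotlib 3.10.9 were used.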

Additional observations from a re-analysis of the deposited data

Results flagged for a closer look

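Members on opposite sides of 0 on the arrays whose difference was at least 2-fold were set aside, and for none of them was the difference tested. On the negative side of the difference (Th17 minus Th1) they were Cd74 at −1.30, H2-Oa at −1.23, H2-DMb1 at −1.09, H2-DMb2 at −1.05, H2-Ab1 at −1.05 and H2-Eb1 at −1.01. On the positive side they were H2-T9 and H2-M10.6, both at 1.01. Of these 8 genes only Cd74 and H2-Ab1 had more than 1 probe, and in both every probe kept the side of the mean.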

How the results depend on the processing

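With 1.5-fold in place of 2-fold, 9 members were apart on the Th1-Th0 array and 11 on the Th17-Th0 array, where 26% and 20.9% of all genes were. In the difference 14 were apart, beside 20.5%. The other 91 values computed for the counts and medians stayed within 1.5 times (counts) or within the spread between probes (medians). For medians under the 2 centrings this was fixed in advance, because each centring moves all values by less than that spread. A like count can also hide other members. Of the 10 members called in the difference, 5 were among the 7 called there with control-gene centring. Medians that crossed 0 on control-gene centring were those of class I, processing and other presentation genes, on the Th1-Th0 array and in the difference; leaving out weak probes moved the nonclassical median on the Th17-Th0 array from 0.01 to −0.04. H2-Ab1 was lost from the difference when the median or the smallest of its probes was taken, and H2-T9 when shared probes were kept. With the sign turned on both arrays every value changes sign alike. No paired analysis was possible because each group had 1 array. No array could be left out for the same reason.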
